A study of Mus musculus with 6 samples.

Results

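The genes described here are those of glycolysis and glucose uptake: the facilitative glucose transporters, the enzymes that carry glucose to pyruvate and lactate, the kinases that set the flow at the phosphofructokinase step, the kinases that hold pyruvate back from the mitochondrion, and the oxygen-sensing HIF-1 axis that is known to control many of them. They were chosen by name, as 35 gene symbols. These symbols matched 36 of the 22322 gene rows, because Aldoa has 2 rows. RNA-Seq was performed on sorted DP (CD4+ CD8+) thymocytes from untreated mice aged 4 to 7 weeks. The 3 control libraries came from mice labelled WT (Paxbp1fl/fl), littermates whose Paxbp1 alleles carry loxP sites around exon 8, and the 3 cKO libraries from Paxbp1fl/fl mice that also carry the Lck-cre transgene. The Lck promoter drives Cre early in T cell development, so that Paxbp1, which encodes a PAX-binding adaptor protein, is deleted before the DP stage. The floxed alleles were thus shared by both groups, while the Cre transgene was stated for the cKO mice only and cannot be told apart from the loss of Paxbp1. Whether each library came from 1 mouse was not stated, so that the p-values measure the spread between libraries.

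Glycolysis splits glucose into pyruvate in the cytosol and yields ATP and carbon for biosynthesis without oxygen. Lactate dehydrogenase then interconverts pyruvate and lactate and restores the NAD+ that the pathway uses, whereas the pyruvate dehydrogenase complex sends pyruvate on to the mitochondrion. In the thymus, proliferating early thymocytes are known to take up and ferment more glucose than the small resting DP cells that follow them.

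The deposited counts summed to between 18963775 and 26252248 per library, and 1 count was worth 0.0381 to 0.0527 CPM, the unit of counts scaled to library size. Values given as CPM were scaled by the trimmed mean of M-values (TMM). The DP label was checked on 10 marker genes, all of which were detected, with a summed level of 12405 to 14274 CPM in the control libraries and 9323 to 10900 CPM in the cKO libraries. All 10 had a log2 fold change below 0, and 3 (30%) were called lower (Rag1, Cd3e and Cd8b1), against 5.89% of all tested genes. Of the lists for other cells, macrophage markers had the most calls, and their summed level went from 4.27 to 8.19 CPM in control to 25.4 to 38.6 CPM in cKO over 10 genes. In that list 4 of 6 tested genes (66.7%) were called higher (C1qb, C1qc, Adgre1 and Cd68), against 4.47% of all tested genes. Mertk, Marco and Vsig4 had no count in any library. Paxbp1 itself had 40.1, 16.3 and 15.5 CPM in control libraries 1, 2 and 3 and 38.8, 47.1 and 49.6 CPM in cKO libraries 1, 2 and 3 (log2 fold change 0.92 ± 0.33 SE, edgeR adjusted p = 0.0977, and called higher without control library 1, adjusted p = 0.00170). A count over the whole gene is not limited to exon 8, so it does not check the genotype labels. Of the Paxbp1 exon length, 20.7% overlaps a gene on the other strand, and whether the counting used strand was not stated. In such bulk samples, fewer cells of a type and less RNA per cell cannot be told apart. Control library 1 stood apart from the other control libraries for Paxbp1. Of the 32 tested glycolysis genes, it held the lowest value of all 6 libraries for 10 and the highest for 5. Control library 2 was lowest for 7 and highest for 6, and control library 3 lowest for 3 and highest for 10. The cKO libraries were lowest for 2 to 6 and highest for 0 to 7. By this tally control library 1 was thus not alone. Values without control library 1 are given beside the main results that it moved.

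How many genes of the pathway passed the test between genotypes depended on the method. Of the 36 rows, 32 had enough counts to be tested, and 2 of these 32 (6.25%) were called by edgeR's quasi-likelihood test at an adjusted p below 0.05, against 10.4% of all 11488 tested genes. Both fell, Ldhb for a lactate dehydrogenase subunit and Pdk2 for a pyruvate dehydrogenase kinase, against 5.89% of all tested genes called lower. None of the 32 was called higher, against 4.47% of all genes, and none passed both the adjusted p and an absolute log2 fold change above 1, against 2.76% of all genes. At an unadjusted p below 0.05 there were 11 of 32 (34.4%), against 27.9% of all tested genes. DESeq2 called 3 rows of the list higher and 5 lower, of 35 with any count and 31 that kept an adjusted p. It called 12.5% of all 15349 rows with any count in either direction. Those rows include some without an adjusted p, so this share is not on the scale of the 10.4% by edgeR. The median log2 fold change was -0.04, beside 0.00 over all tested genes, with 14 genes above 0 and 18 below. Control and cKO values were fully separate for 9 of the 32 genes, and for 33.0% of all tested genes. Together the 36 rows took 0.599%, 0.692% and 0.705% of the counts in control libraries 1, 2 and 3 and 0.612%, 0.630% and 0.621% in cKO libraries 1, 2 and 3. These overlapped through control library 1 alone, and the difference of the means was -0.044 percentage points with it and -0.077 without it.

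**Figure D1:**
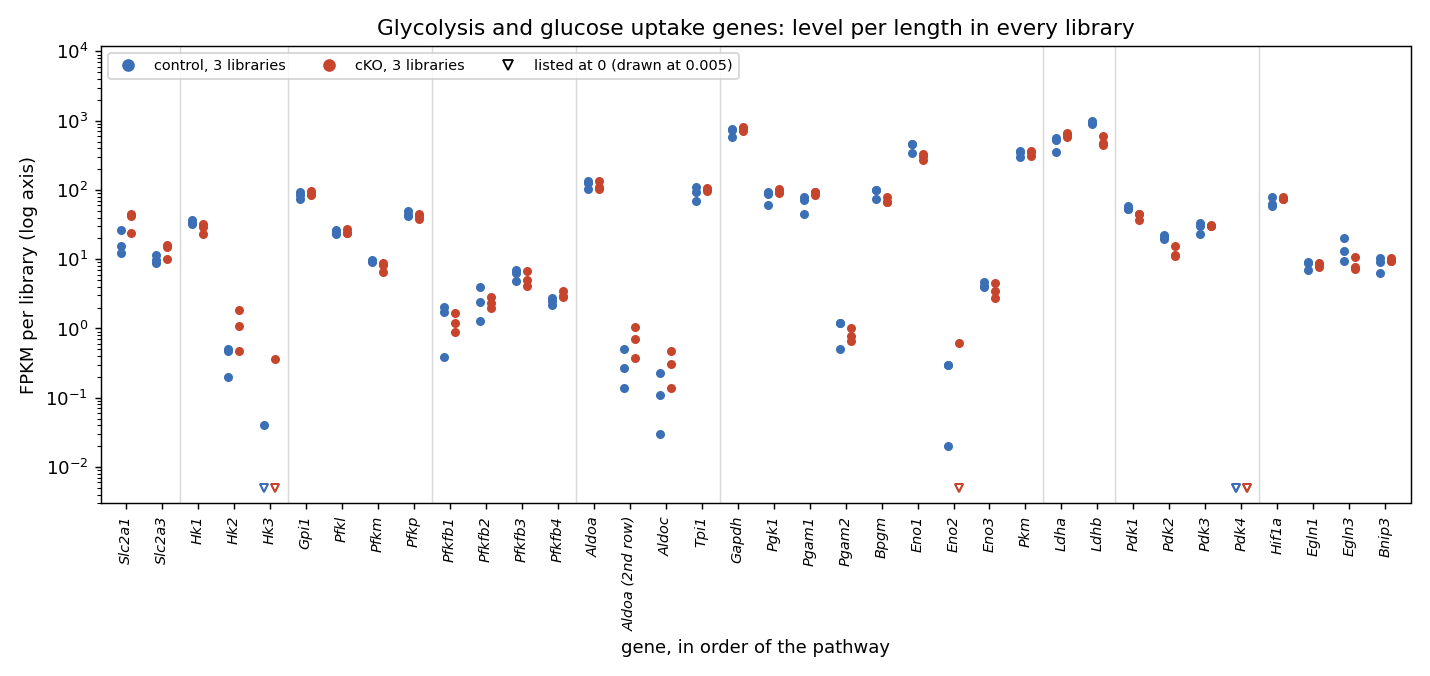
Level of each glycolysis and glucose uptake gene per length, in FPKM on a log axis, with 1 point per control (blue) or cKO (red) library, genes in order of the pathway and values of 0 drawn as open triangles at the foot of the axis. Ldhb lies at 901 to 1000 FPKM in control and 444 to 597 FPKM in cKO, while for most other genes the points of both genotypes lie together.

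Ldhb (ENSMUSG00000030246) encodes the H subunit of lactate dehydrogenase, which is known to favour the conversion of lactate to pyruvate, and Ldha (ENSMUSG00000063229) encodes the M subunit, which is known to favour pyruvate to lactate. Ldhb lies on chromosome 6 from 142490249 to 142507957 on the minus strand, and Ldha on chromosome 7 from 46841475 to 46855627 on the plus strand (GENCODE M21, GRCm38). Ldhb had 1147, 1210 and 1097 CPM in control libraries 1, 2 and 3 and 580, 697 and 525 CPM in cKO libraries 1, 2 and 3. Every cKO library was thus below every control library. The mean fell from 1151 ± 56.4 to 600 ± 87.7 CPM (SD, n = 3 each), a fold of 0.522 (95% confidence interval 0.431 to 0.632, log2 fold change -0.94 ± 0.12 SE, edgeR adjusted p = 0.00408), and Ldhb ranked at 43 of 11488 genes by p. With any 1 library left out, its log2 fold change lay between -1.06 and -0.85 and its adjusted p between 0.00219 and 0.0394. Ldha moved the other way in the mean, with 547, 840 and 909 CPM in control and 1029, 898 and 971 CPM in cKO. Control library 3 overlapped the cKO range and control library 1 was far below the others. The mean level was 765 ± 192 CPM in control and 966 ± 66.0 CPM in cKO (log2 fold change 0.34, 95% confidence interval -0.04 to 0.72, edgeR adjusted p = 0.232), and leaving out control library 1 brought the log2 fold change to 0.14 (adjusted p = 0.327). The Ldha result therefore did not pass the test, and the size of its difference rested largely on 1 library.

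The levels of different genes were compared per length, as FPKM, fragments scaled to gene length and library size, in the deposited table. In control libraries the order of mean levels among the most abundant genes of the pathway was Ldhb (953 ± 49.7 FPKM), Gapdh (697 ± 95.1), Ldha (479 ± 114), Eno1 (418 ± 64.2), Pkm (340 ± 34.5) and Aldoa (122 ± 15.5). In cKO libraries it was Gapdh (769 ± 55.3 FPKM), Ldha (613 ± 40.6), Ldhb (507 ± 79.5), Pkm (341 ± 29.6), Eno1 (303 ± 28.1) and Aldoa (117 ± 16.8). Ldhb was thus the most abundant transcript of the list in control DP cells and came after Gapdh and Ldha in the cKO cells. Ldha made up 26.7%, 34.4% and 38.4% of the summed FPKM of Ldha and Ldhb in control libraries 1, 2 and 3, and 57.6%, 49.0% and 58.0% in cKO libraries 1, 2 and 3. The shares did not overlap, and the difference of the means was 21.7 percentage points (33.2% ± 5.94 against 54.9% ± 5.08, SD, n = 3 each, exact two-sided permutation p = 0.1, the smallest that 3 against 3 libraries allow, and 0.35 when adjusted over the 7 isozyme shares tested). Expressed as a ratio of Ldha to Ldhb, the values were 0.365, 0.525 and 0.624 in control and 1.36, 0.961 and 1.38 in cKO, so that 2 of the 3 cKO libraries held more Ldha than Ldhb per length and no control library did. Without control library 1 the difference in share was 18.4 percentage points. The summed CPM of both genes was 1695, 2050 and 2006 in control and 1610, 1594 and 1495 in cKO. Ldhal6b, a relative of these genes, had at most 10 counts in any library, and Ldhc had none. No exon of Ldha or Ldhb overlapped another annotated gene.

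**Figure D2:**
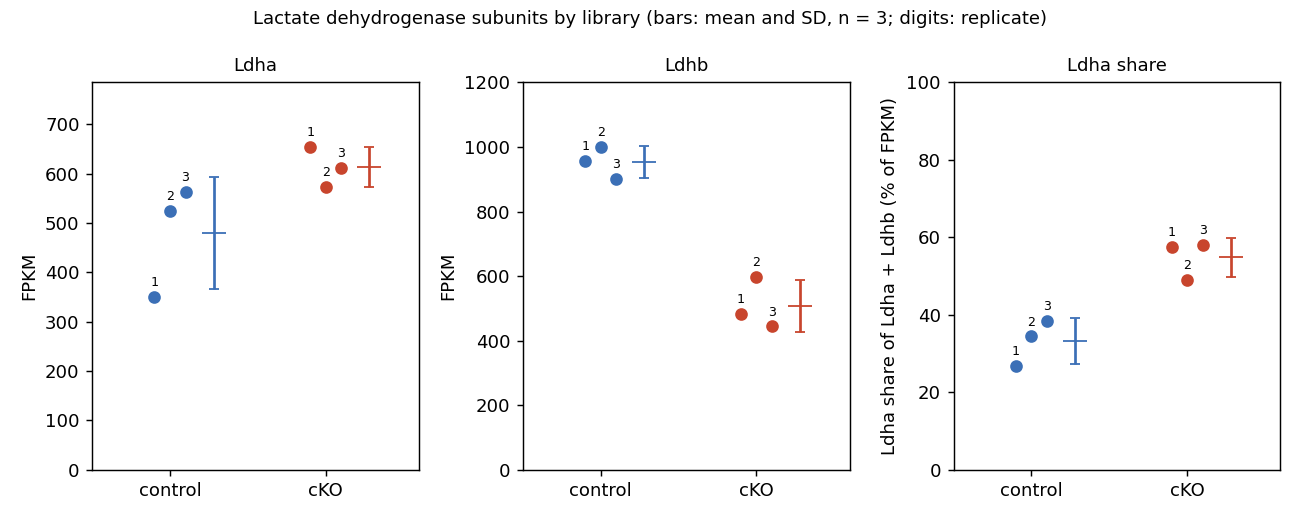
Ldha and Ldhb in each control (blue) and cKO (red) library in FPKM, and the percent of their summed FPKM that is Ldha, with numbered points for the libraries and bars for the mean and SD (n = 3). The Ldhb levels separate by genotype, and the Ldha share runs from 26.7% to 38.4% in control and from 49.0% to 58.0% in cKO.

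The promoters of the called genes and of Ldha are shown because HIF-1 and MYC, both known activators of glycolysis genes, bind DNA at short cores. The letters searched on both strands were ACGTG, the core of the HIF response element, and CACGTG, the E-box, each copy of which also holds ACGTG on both strands. The windows are from RefSeq on GRCm38.p6, which held at least 1 window for 34 of the 35 symbols. A search window ran over 300 bases and was set on an annotated start. The 250 bases upstream of that start are printed 5′ to 3′ with ACGTG of either strand in capitals. For Ldha that start lies inside the GENCODE gene, which begins at 46841475. Ldhb lies at chr6:142507958-142508207 (minus strand), the Pdk2 window with a match at chr11:95041372-95041621 (minus strand), and the Ldha window with matches at chr7:46845554-46845803 (plus strand). Ldha was added after its values were seen.
Ldhb: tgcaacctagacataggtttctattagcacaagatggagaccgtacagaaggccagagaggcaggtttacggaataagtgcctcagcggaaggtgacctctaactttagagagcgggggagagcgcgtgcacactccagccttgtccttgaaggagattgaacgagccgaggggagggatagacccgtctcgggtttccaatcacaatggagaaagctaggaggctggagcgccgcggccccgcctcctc
Pdk2: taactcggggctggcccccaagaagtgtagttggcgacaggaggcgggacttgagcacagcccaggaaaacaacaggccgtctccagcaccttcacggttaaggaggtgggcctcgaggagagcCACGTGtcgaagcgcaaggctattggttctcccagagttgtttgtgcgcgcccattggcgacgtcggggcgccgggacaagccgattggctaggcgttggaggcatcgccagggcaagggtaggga
Ldha: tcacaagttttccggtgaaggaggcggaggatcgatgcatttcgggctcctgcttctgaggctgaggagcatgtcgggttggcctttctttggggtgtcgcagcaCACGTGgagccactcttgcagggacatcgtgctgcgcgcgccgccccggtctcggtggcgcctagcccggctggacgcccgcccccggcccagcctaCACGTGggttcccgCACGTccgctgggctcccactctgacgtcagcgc
The Ldha window held 5 matches to ACGTG, which came from 2 E-boxes and 1 further core at -34 from the annotated start of that window. The Pdk2 window held 1 E-box, and the Ldhb window held no match. Second windows of Ldha and Pdk2, at other annotated starts, held none. ACGTG occurred in 23 of 50 windows (46.0%) of the tested genes of this list, in 25.7% of the windows of all tested genes that could be matched and in 19.6% of all 32851 windows. CACGTG occurred in 14.0%, 10.1% and 7.15%, respectively. These are matches of letters only.

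Glucose enters through Slc2a1 (GLUT1), the broadly expressed transporter, and Slc2a3 (GLUT3), a high-affinity transporter. Slc2a1 had 75.9, 35.5 and 45.4 CPM in control libraries 1, 2 and 3 and 126, 65.5 and 120 CPM in cKO libraries 1, 2 and 3. Control library 1 overlapped cKO library 2, and the other cKO libraries were above all control libraries. Its mean was 52.2 ± 21.1 CPM in control and 104 ± 33.1 CPM in cKO (log2 fold change 0.99 ± 0.30 SE, 95% confidence interval 0.33 to 1.65), which missed the threshold (edgeR adjusted p = 0.0590). It passed without control library 1 (1.35, adjusted p = 0.00901) and without cKO library 2 (1.23, adjusted p = 0.0359), and also by DESeq2 (adjusted p = 0.00348). With any other library left out Slc2a1 did not pass (edgeR adjusted p of 0.144 to 0.202). Slc2a3 had 34.3, 25.1 and 30.5 CPM in control and 50.5, 33.1 and 48.9 CPM in cKO, with overlap at 1 library (log2 fold change 0.56 ± 0.20 SE, edgeR adjusted p = 0.0960). For both transporters cKO library 2 was the lowest of the cKO group. Slc2a1 was 63.1% ± 5.92 of the FPKM of the pair in control and 72.7% ± 1.96 in cKO (exact two-sided permutation p = 0.1). Slc2a1 shares 2.99% of its exon length with an antisense gene, and whether the counting used strand was not stated.

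Hexokinase traps glucose in the cell by phosphorylation. Hk1, the constitutive form bound to mitochondria, had 127, 143 and 125 CPM in control and 89.2, 119 and 111 CPM in cKO. Its groups did not overlap, but the difference did not pass (log2 fold change -0.31 ± 0.14 SE, edgeR adjusted p = 0.174, and -0.19 without cKO library 1). Hk2, the inducible form of proliferating cells, was low throughout, with 2.80, 1.13 and 2.64 CPM in control and 10.2, 2.60 and 6.04 CPM in cKO. It had the largest estimated fold of the tested genes (2.86, log2 fold change 1.52 ± 0.54 SE, 95% confidence interval 0.32 to 2.72), did not pass (edgeR adjusted p = 0.0986), and dropped to 0.98 on the log2 scale without cKO library 1 (adjusted p = 0.347). Hk1 accounted for 98.8% ± 0.585 of hexokinase FPKM in control and 95.4% ± 3.03 in cKO (exact two-sided permutation p = 0.2), and Hk2 for 1.16% and 4.18%. Hk3 was read in control library 1 (2 counts) and cKO library 3 (24 counts) and in no other library, where a count of 0 allows up to 3 counts, or 0.114 to 0.158 CPM by library.

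Glucose-6-phosphate isomerase (Gpi1) had 155, 182 and 204 CPM in control and 178, 178 and 199 CPM in cKO, with full overlap (log2 fold change 0.04, 95% confidence interval -0.25 to 0.32, edgeR adjusted p = 0.891). At the phosphofructokinase step, the committed and most regulated step of glycolysis, the platelet form Pfkp was the main isozyme per length (56.8% of the FPKM of the 3 genes in control and 55.9% in cKO), followed by the liver form Pfkl (31.5% and 33.5%, exact two-sided permutation p = 0.7) and the muscle form Pfkm (11.7% and 10.6%). Pfkp had 131, 142 and 142 CPM in control and 109, 118 and 118 CPM in cKO, groups that did not overlap but differed by only -0.27 on the log2 scale (SE 0.11, edgeR adjusted p = 0.146). Pfkm was also apart between the groups (log2 fold change -0.26, adjusted p = 0.360), and Pfkl was not (-0.04, adjusted p = 0.899). All 3 shares at this step overlapped between the groups. The PFKFB enzymes make and remove fructose 2,6-bisphosphate, the activator of phosphofructokinase, and none of the 4 passed. Pfkfb3, the most abundant, had 19.0, 20.1 and 14.4 CPM in control and 16.4, 12.8 and 12.0 CPM in cKO (log2 fold change -0.38, edgeR adjusted p = 0.293). For Pfkfb1, Pfkfb2 and Pfkfb4 the log2 fold changes were -0.19, -0.10 and 0.24 with adjusted p of 0.892, 0.908 and 0.556.

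Aldolase and triose phosphate isomerase form the triose phosphates. Aldoa had 148, 175 and 195 CPM in control and 187, 144 and 153 CPM in cKO (log2 fold change -0.09 ± 0.14 SE, edgeR adjusted p = 0.721) and held 99.9% and 99.7% of aldolase FPKM. The brain form Aldoc had 1 to 20 counts per library (adjusted p = 0.617), and the second Aldoa row, an annotated gene upstream of the first, had 2 to 17 counts and was not tested. Tpi1 had a log2 fold change of 0.16 (adjusted p = 0.587), and of -0.02 without control library 1.

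The payoff phase runs from Gapdh to pyruvate kinase and yields the ATP of the pathway. Gapdh, the reference gene of the study's quantitative PCR, had 800, 1029 and 1064 CPM in control and 959, 1069 and 1106 CPM in cKO. The groups overlapped, and the fold was 1.08 (95% confidence interval 0.888 to 1.32, edgeR adjusted p = 0.614). The estimate turned from 0.12 to -0.01 on the log2 scale without control library 1. Pgk1, the first enzyme to form ATP, had a log2 fold change of 0.23 (adjusted p = 0.408), which was 0.05 without that library. Pgam1, a phosphoglycerate mutase, had 77.7, 129 and 145 CPM in control and 163, 146 and 164 CPM in cKO, with no overlap but a control group spread by library 1 (log2 fold change 0.43 ± 0.20 SE, adjusted p = 0.188, and 0.20 without library 1). Bpgm, which makes and removes 2,3-bisphosphoglycerate, overlapped between the groups (log2 fold change -0.33, adjusted p = 0.164).

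Eno1, the ubiquitous enolase, was lower in every cKO library than in any control library, at 549, 658 and 625 CPM against 689, 936 and 937 CPM. Its mean was 854 ± 143 CPM in control and 610 ± 55.9 CPM in cKO, a log2 fold change of -0.48 ± 0.14 SE (95% confidence interval -0.80 to -0.17) that missed the threshold (edgeR adjusted p = 0.0531). It passed without control library 1, the lowest control library (-0.62, adjusted p = 0.00429), and by DESeq2 (adjusted p = 0.0133). With any other library left out it did not pass (edgeR adjusted p of 0.0886 to 0.176). Eno1 shares sequence with its near copy Eno1b, which had 25 to 51 counts in its own row, and reads could be divided between such copies. Eno1 held 98.9% of enolase FPKM in control and 98.7% in cKO (exact two-sided permutation p = 0.8). The muscle enolase Eno3 had a log2 fold change of -0.37 (adjusted p = 0.478), and the neuronal enolase Eno2 had 6, 10 and 1 counts in control and 32, 0 and 0 in cKO and was not tested. Pkm, pyruvate kinase, had 664, 827 and 872 CPM in control and 699, 810 and 788 CPM in cKO (log2 fold change -0.04, 95% confidence interval -0.32 to 0.24, edgeR adjusted p = 0.874). These counts per gene do not separate its M1 and M2 splice forms. The muscle mutase Pgam2 had 11 to 20 counts per library (adjusted p = 0.853).

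The pyruvate dehydrogenase kinases phosphorylate and switch off the pyruvate dehydrogenase complex. Pdk2 (ENSMUSG00000038967, chromosome 11 from 95026258 to 95041354, minus strand, GRCm38) had 44.2, 50.3 and 48.3 CPM in control libraries 1, 2 and 3 and 35.1, 24.9 and 26.1 CPM in cKO libraries 1, 2 and 3, with no overlap. It fell from 47.6 ± 3.08 to 28.7 ± 5.57 CPM, a fold of 0.603 (log2 fold change -0.73 ± 0.17 SE, 95% confidence interval -1.11 to -0.35, edgeR adjusted p = 0.0261). This call was lost without control library 2 (adjusted p = 0.0912), control library 3 (0.0657), cKO library 2 (0.0781) or cKO library 3 (0.122), while the log2 fold change stayed between -0.90 and -0.64 whichever library was left out. Pdk1, the most abundant kinase and a known HIF-1 target, had 303, 277 and 277 CPM in control and 228, 230 and 193 CPM in cKO. The groups of Pdk1 did not overlap either, at a log2 fold change of -0.39 ± 0.12 SE (95% confidence interval -0.65 to -0.14). The test just missed (edgeR adjusted p = 0.0547). Pdk1 passed without control library 1 (-0.35, adjusted p = 0.0469) and by DESeq2 (adjusted p = 0.0229). With any other library left out Pdk1 did not pass (edgeR adjusted p up to 0.218). Pdk3 did not pass (log2 fold change 0.07, 95% confidence interval -0.28 to 0.41, adjusted p = 0.830), and Pdk4 had no count in any library. The summed level of the kinases was 392 to 396 CPM in control and 284 to 328 CPM in cKO.

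HIF-1α is a transcription factor that is held low in oxygen by the prolyl hydroxylases EGLN1 and EGLN3, and it is mainly controlled as protein, which was not measured in these libraries. Hif1a had 353, 284 and 267 CPM in control and 332, 330 and 357 CPM in cKO (log2 fold change 0.17, 95% confidence interval -0.11 to 0.45, edgeR adjusted p = 0.416). Its estimate was 0.30 without control library 1 (adjusted p = 0.0517) and 0.09 without control library 3 (adjusted p = 0.753). Egln1 did not pass (log2 fold change -0.01, adjusted p = 0.977), nor did Bnip3, a mitophagy receptor and HIF-1 target (0.17, adjusted p = 0.660), of whose exon length 22.2% overlaps a gene on the other strand. Egln3, itself a HIF-1 target, had 24.4, 35.2 and 54.6 CPM in control and 28.1, 20.6 and 19.3 CPM in cKO (log2 fold change -0.75 ± 0.28 SE, adjusted p = 0.107). It varied widely among the control libraries and overlapped. It passed without control library 1 (-0.99, adjusted p = 0.0183), while the estimate shrank to -0.40 without control library 3, its highest library (adjusted p = 0.351).

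**Figure D3:**
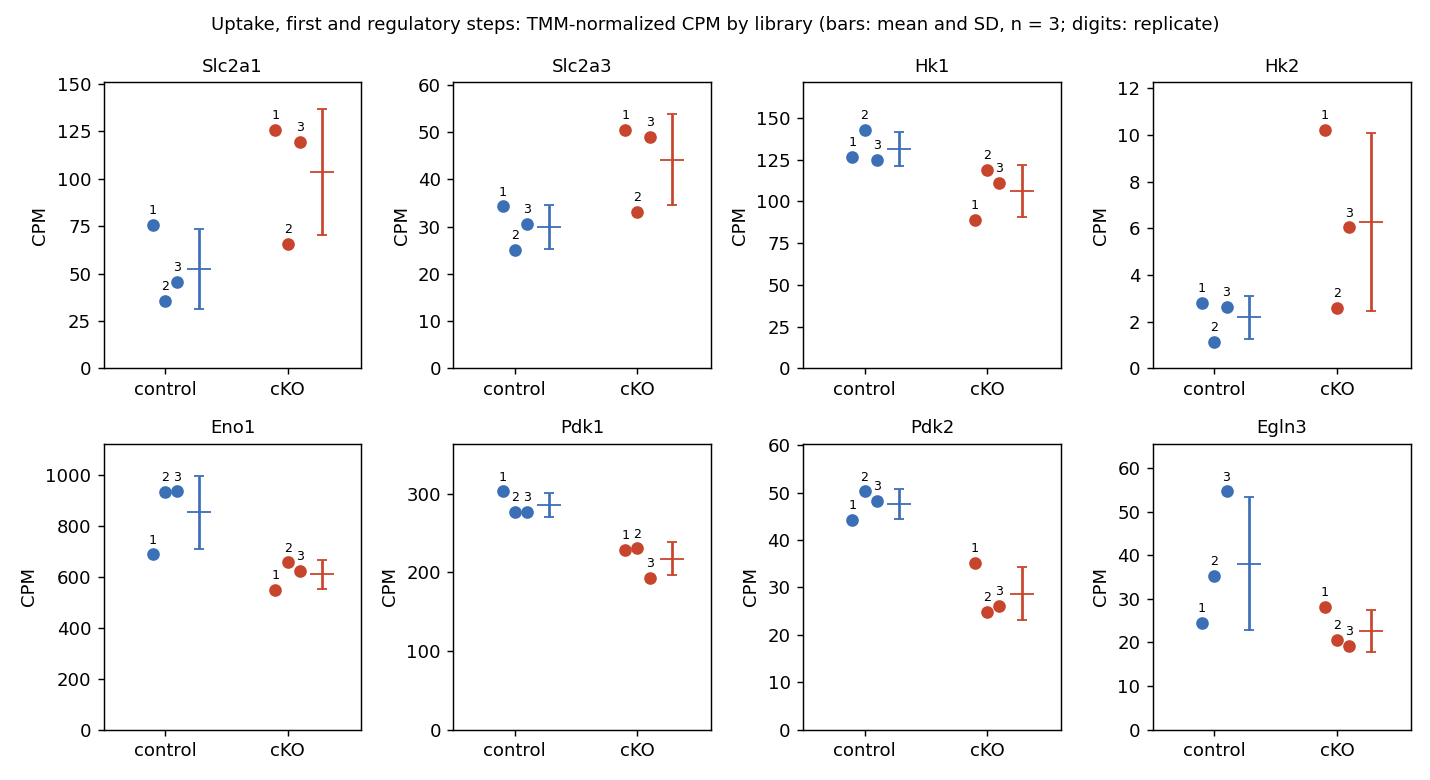
Levels in TMM CPM of Slc2a1, Slc2a3, Hk1, Hk2, Eno1, Pdk1, Pdk2 and Egln3 in each control (blue) and cKO (red) library, with numbered points for the libraries and bars for the mean and SD (n = 3). Hk1, Eno1, Pdk1 and Pdk2 lie lower in every cKO library than in any control library, whereas Slc2a1, Slc2a3, Hk2 and Egln3 overlap between genotypes.

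**Figure D4:**
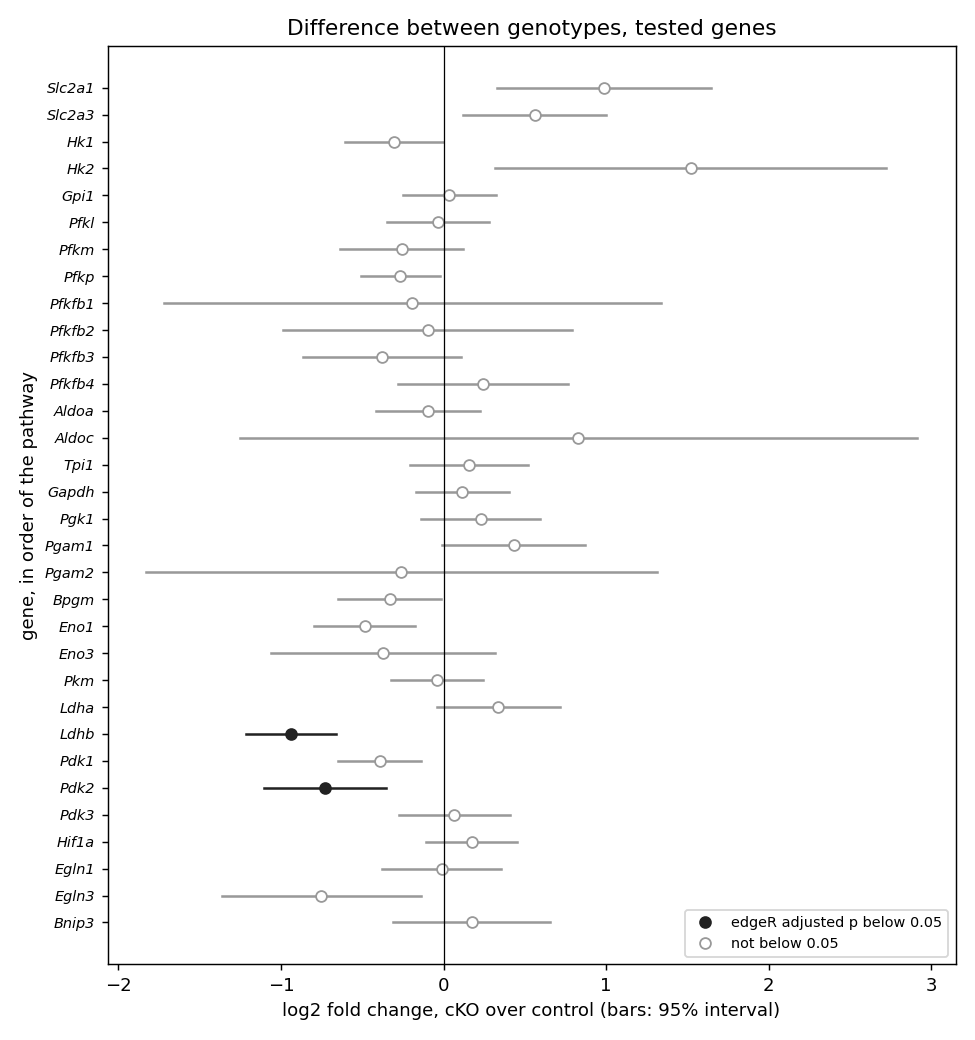
Log2 fold change of cKO against control for each tested gene of the list, with bars for the 95% confidence interval of edgeR's quasi-likelihood fit and genes grouped by role. The called genes are Ldhb at -0.94 and Pdk2 at -0.73, and Hk2 has the highest estimate at 1.52 with an interval of 0.32 to 2.72.

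Of 21 further glycolysis genes, 10 could be tested and none was called (3 at an unadjusted p below 0.05), with a median log2 fold change of 0.15. Hkdc1, Pklr and Slc2a2 were among the untested ones and had no count in any library. Of 13 genes for lactate transport and pyruvate entry, 1 (7.69%) was called higher and none lower, against 10.4% of all tested genes called in either direction. It was Dld, the dihydrolipoamide dehydrogenase subunit that the pyruvate dehydrogenase complex shares with other complexes, at 100.8 ± 4.58 CPM in control and 134 ± 7.41 CPM in cKO (log2 fold change 0.41 ± 0.11 SE, edgeR adjusted p = 0.0451). Of 10 pentose phosphate genes, 1 (10%) was called lower and none higher. This was H6pd, the form of glucose-6-phosphate dehydrogenase in the endoplasmic reticulum. It had 46.1 ± 3.80 CPM in control and 32.2 ± 0.708 CPM in cKO (log2 fold change -0.52 ± 0.14 SE, edgeR adjusted p = 0.0447). The call of Dld was lost when control library 2 or 3 or any cKO library was left out (lowest adjusted p 0.0817), and that of H6pd in the same cases (0.0867 to 0.143).

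Among 14 tested HIF pathway genes outside the list, Ddit4 alone was called (7.14%, against 10.4% of all tested genes), and it fell. Ddit4, an inhibitor of mTORC1 that is induced by low oxygen and other stresses, had 49.4, 43.1 and 51.4 CPM in control and 19.9, 18.5 and 20.5 CPM in cKO (log2 fold change -1.29 ± 0.15 SE, edgeR adjusted p = 0.00349). The groups lay far apart relative to their spread. Of 13 tested regulators of glucose metabolism in T cells, 1 was called lower and 2 higher (23.1% called, against 10.4% of all tested genes). At an unadjusted p below 0.05 there were 7 of the 13 (53.8%), against 27.9% of all tested genes. Txnip, an arrestin that lowers glucose uptake by taking GLUT1 off the cell surface, had 235, 349 and 307 CPM in control and 142, 148 and 145 CPM in cKO, a log2 fold change of -1.04 ± 0.15 SE (edgeR adjusted p = 0.00495). Of the Txnip exon length, 19.4% overlaps a gene on the other strand. Prkaa1, a catalytic subunit of the energy sensor AMPK, rose from 24.6 ± 5.22 to 42.8 ± 5.40 CPM (log2 fold change 0.80 ± 0.19 SE, edgeR adjusted p = 0.0293), and Foxo1, a transcription factor restrained by AKT, from 103 ± 13.5 to 153 ± 24.2 CPM (log2 fold change 0.58 ± 0.15 SE, edgeR adjusted p = 0.0366). The calls of Txnip and Ddit4 held with each library left out, whereas those of Prkaa1 and Foxo1 were lost without control library 2, control library 3, cKO library 1 or cKO library 3 (adjusted p of 0.0733 to 0.131 and 0.0917 to 0.164). Myc, a known driver of glycolysis genes in activated T cells, did not pass (log2 fold change 0.16, adjusted p = 0.606).

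Marker lists that moved with genotype are given beside these results. Of 17 cycling cell markers, 7 (41.2%) were called higher (Mcm2 to Mcm7 and Pcna) and none lower, against 4.47% of all tested genes called higher. The other markers, Mki67 and Cdk1 among them, were not called. The list was chosen with earlier results of these data known, so its share is a description only. The log2 fold change was above 0 for 13 of the 17 and below 0 for 4 (Top2a, Ccnb2, Ccna2 and Birc5). The summed level of the 17 was 5429, 7658 and 8527 CPM in control libraries 1, 2 and 3 and 8885, 9964 and 11487 CPM in cKO libraries 1, 2 and 3. Control library 1, lowest for the sum of these markers, was also lowest for Ldha, Gapdh, Pgk1, Pgam1, Pkm, Tpi1, Gpi1, Pfkl, Pfkfb1 and Pdk3. The same library was highest for Pfkfb2, Bpgm, Pdk1, Egln1 and Bnip3. The summed levels of the remaining lists, in control and then cKO libraries, were 1.75 to 3.96 and 4.24 to 6.30 CPM for dendritic cells (Clec9a at 0), 946 to 1298 and 869 to 908 CPM for B cells (nearly all Ighm, with Cd79b called lower), 27.5 to 141 and 1.92 to 48.8 CPM for erythroid cells, 0.0388 to 0.104 and 0.0456 to 0.312 CPM for neutrophils (Mpo, Elane, Ly6g and Retnlg at 0), 11.3 to 14.0 and 10.3 to 14.8 CPM for thymic epithelial cells (Krt5 at 0), and 34.4 to 73.9 and 138 to 164 CPM for NK cells and innate lymphocytes (nearly all Gzma, which was called higher, with Klrb1c at 0). The whole macrophage list summed to at most 38.6 CPM in any library. The part of these lists in the differences of the glycolysis genes was not tested.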

How the data were processed

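RNA was sequenced from sorted DP thymocytes of 3 control and 3 cKO libraries, grouped by genotype label. The kit was Discover-sc WTA Kit V2 by the methods and a SMARTER kit by the labels. The authors deposited a table of 22322 genes with counts per gene, without normalization. Its FPKM values were made by the authors from gene length and library size. The log2 ratio, p-value and FDR columns hold the authors' own comparison and were not used. The submitters' processing notes list fastp 0.18.0, Bowtie2 2.2.8, HISAT2, StringTie 1.3.1 and RSEM without roles, so that the counts may be rounded estimates. The genome build was not given in the sources used here. Coordinates are from GENCODE M21 (GRCm38), matched by Ensembl identifier.

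Genes were kept by filterByExpr (minimum count 10, minimum total 15) and tested in R 4.3.3 with edgeR 4.0.16 by the quasi-likelihood test, with TMM factors, a model of genotype alone and Benjamini-Hochberg adjustment over 11488 genes. Libraries of a group were no duplicates. The code was checked on simulated counts. Alternatives were relative log expression (RLE) factors, DESeq2 1.42.0, library totals, 2 other filters, voom and limma 3.58.1 on log2(FPKM + 1), a replicate term and leaving out each library. Isozyme shares of FPKM were compared by exact permutation tests, 7 in all, and the adjusted p was 0.35 or more. Values by library are given for called genes, the most abundant gene of each role and Gapdh. Other genes so shown were picked after their values were seen. The gene list and the other lists were chosen with earlier results of these data known. The limit given for a count of 0 covers counting error only.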

Additional observations from a re-analysis of the deposited data

How the results depend on the processing

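Ldhb was called under every alternative, Pdk2 under every one that kept all libraries. The 2 calls of the list became 8 by DESeq2 (3 higher, 5 lower, 12.5% of all rows with any count called). They became 5 by voom (11.5% of all tested genes) and 5 with the replicate number as a block (10.8%), with 1 higher and 4 lower each. They became 4 without the filter (8.85%), with a filter at 5 CPM (14.4%) and by limma on log2(FPKM + 1) (14.2%), with 1 higher each. RLE factors and library totals gave 2. Past the fold as well, the list had 1 call by DESeq2, the 5 CPM filter, voom, limma on FPKM and the replicate block, against 0. With a library left out the list had 1 to 6 calls (0 to 1 higher, 1 to 5 lower, 0 to 2 past the fold). Over all genes there were 1191 calls, 1912 by DESeq2 and 120 to 2030 with a library left out, lowest without cKO library 3 and highest without control library 1 (past the fold 73 to 454, against 317). Whether the replicate numbers pair the libraries was not settled. Deviations of same-numbered libraries from their group means correlated at 0.045, 0.038 and -0.030, which with 3 libraries a group cannot exclude pairing. With the block, Slc2a1 (adjusted p = 0.00973), Eno1 (0.0202) and Pdk1 (0.0489) were called, and Dld (0.0571) and H6pd (0.0612) were not.

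Log2 fold changes near 0 turned sign: Pfkfb1 by voom (0.043) and block (0.053), Pfkfb2 by voom (0.0095), Pkm by limma on FPKM (0.0069), and Egln1 by library totals (0.0068), the 5 CPM filter (0.0044) and limma on FPKM (0.014). With a library left out, Tpi1 ranged from -0.020 to 0.31, Gapdh from -0.0054 to 0.19, Bnip3 from -0.0055 to 0.31, Pdk3 from -0.078 to 0.18, Gpi1 from -0.064 to 0.13, Pfkfb1 from -0.64 to 0.30, Pkm from -0.15 to 0.037, Pfkfb2 from -0.40 to 0.36, Pfkl from -0.13 to 0.035 and Egln1 from -0.13 to 0.053. The cause was not tested. With 3 libraries a group, the isozyme shares cannot reach a p below 0.1, and genes under about 20 counts gave intervals too wide to read.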
